A study of Mus musculus with 16 samples.

Results

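Ribosomal protein genes and their gene copies were followed across 4 mouse liver cell types. Members were all genes of the count tables whose symbol starts with Rpl or Rps and a digit, or is Rpsa, Rplp0, Rplp1 or Rplp2, with the Rps6k kinases left out. This rule took 351 of 47729 genes: 31 core genes of the small subunit, 46 core genes of the large subunit, 9 paralogs, 264 copies, and Rps19bp1, which binds a ribosomal protein but is not one. The annotation called 250 of the copies processed pseudogenes, 7 transcribed processed pseudogenes and 6 protein-coding, and did not list 1.

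The libraries were bulk RNA from liver endothelial cells (ECs), hepatic stellate cells (HSCs), Kupffer cells (KCs) and hepatocytes (HEPs), each with 2 WT-labelled and 2 KO-labelled libraries, 16 in all. All animals were 8-week-old male mice with Zeb2 exon 7 flanked by loxP sites and a CAG-boosted eGFP reporter in R26R, and all received 2 mg tamoxifen a day for 5 days. KO mice carried Cdh5-CreERT2, a tamoxifen-inducible Cre driven by an endothelial promoter, WT mice were Cre-negative littermates, and RNA was taken 2 weeks after tamoxifen from livers without injury. ECs, HSCs and KCs were sorted by Pan-endo antibody, UV autofluorescence and F4/80, while HEPs were separated by centrifugation. Libraries are named here by cell type, label and the number in their title, such as EC KO 46. The labels do not say whether a number marks a mouse or whether libraries share a liver, so p-values measure the spread between these libraries.

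Reads on genes ran from 12872706 to 15690506 per library. The summed markers of each labelled cell type were highest in its own libraries, with no marker of the own type at 0, but in EC WT 38 hepatocyte markers (24916 CPM) summed to more than EC markers (16979 CPM). Zeb2, counted over the whole gene and so not a measure of exon 7, was at 106.5 and 105.7 CPM (counts scaled to 1000000 reads on genes) in EC WT and at 198.9 and 130.1 CPM in EC KO, so that it was not lower in the libraries labelled KO. All directions below are by label.

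Each ribosome holds 1 copy of nearly every ribosomal protein, bound to ribosomal RNA in a small subunit that reads the mRNA and a large subunit that joins amino acids. The mRNAs of these proteins start with a stretch of pyrimidines, the terminal oligopyrimidine (TOP) tract, through which their translation follows growth signals. Because they are abundant in every cell, including the germ line, they have been copied back into mammalian genomes many times as intronless processed pseudogenes, most of which are silent. Reads from such a copy and from its parent can be told apart only where their sequences differ, and reads that fit several places equally well were not counted.

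The copies on which the results turn differ from their parents at few bases, which is why a stretch of each is shown. Rps3a3 is annotated at chr13:108670603-108671397 on the plus strand of GRCm38, as 1 exon of 795 bases inside an intron of Pde4d, which lies on the same strand. It aligned over its whole length to the Rps3a1 transcript, the mRNA of a small subunit protein encoded on chromosome 3, with 98.9% identity and 9 substitutions. Counted from the first base of the Rps3a1 transcript, with the base of Rps3a1 first, these were T349C, T393C, C496T, A560T, T667C, G715T, A793G, C895T and G925A. All 9 lay within the coding sequence, bases 134 to 928 of 977. Of all stretches of 50 bases in Rps3a3, 65.1% also occurred in other annotated transcripts. The capitals in the stretches below mark the bases that differ between the parent and the copy, and each is written 5′ to 3′.
Rps3a1, bases 342 to 401: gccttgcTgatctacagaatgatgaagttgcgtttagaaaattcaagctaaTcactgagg
Rps3a3, bases 209 to 268: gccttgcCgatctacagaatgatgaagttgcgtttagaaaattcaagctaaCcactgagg
Rps3a1, bases 869 to 928: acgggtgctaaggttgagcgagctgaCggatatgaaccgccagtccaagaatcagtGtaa
Rps3a3, bases 736 to 795: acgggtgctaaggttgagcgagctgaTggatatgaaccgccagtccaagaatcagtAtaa
Rps2, bases 585 to 644: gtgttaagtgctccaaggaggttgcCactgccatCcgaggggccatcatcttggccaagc
Rps2-ps13, bases 419 to 478: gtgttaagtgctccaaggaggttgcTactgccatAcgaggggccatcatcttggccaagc
Rps2-ps13, a processed pseudogene of 882 bases at chrX:52898588-52899469 on the plus strand of GRCm38, aligned to Rps2, another small subunit gene, with 99.2% identity and 7 substitutions, and 89.8% of its stretches of 50 bases occurred elsewhere. Within the aligned part, a read can be placed on the parent or the copy only where it covers a base that differs. Reads on parts of a parent transcript outside the alignment need no such base to be told from the copy.

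Rps3a3 was at 30.8 CPM in EC KO 6 and at 61.9 CPM in EC KO 46, against 0.419 and 0.311 CPM in EC WT 34 and 38. In HSCs it was at 22.7 CPM in KO 8 and at 0.207 CPM in KO 20, with 0.384 and 0.128 CPM in the WT libraries. In KCs it was at 28.0 CPM in KO 27, 0.406 CPM in KO 43, and 0.402 and 0.391 CPM under the WT label. In HEPs it was at 14.0 CPM in KO 25, 0.202 CPM in KO 41, and 0.127 and 0.682 CPM under the WT label. The signal thus stood in 5 of the 8 KO-labelled libraries, both of the ECs and 1 of each other cell type, and in none of the 8 WT-labelled ones, where 2 to 10 reads were counted per library. The Cre of this model is meant to delete Zeb2 in ECs, and not in HSCs, KCs or HEPs.

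As a share of all reads on Rps3a1, Rps3a2 and Rps3a3, Rps3a3 held 27.7% in EC KO 6 (95% Wilson interval 25.6 to 29.9%) and 54.7% in EC KO 46 (52.3 to 57.1%). It held 27.3% in HSC KO 8 (24.9 to 29.9%), 29.0% in KC KO 27 (26.7 to 31.4%) and 26.1% in HEP KO 25 (23.2 to 29.1%). In the other 11 libraries it held 0.173 to 1.22%. Intervals cover counting error only, since PCR copies of a molecule are not independent. In 4 of the 5 libraries the intervals overlapped around 1 level, while that of EC KO 46 lay above them. KO-labelled libraries whose title numbers are 2 apart were alike: HEP KO 25 and KC KO 27 both carried the signal, EC KO 6 and HSC KO 8 both did, and HEP KO 41 and KC KO 43 both did not.

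**Figure D1:**
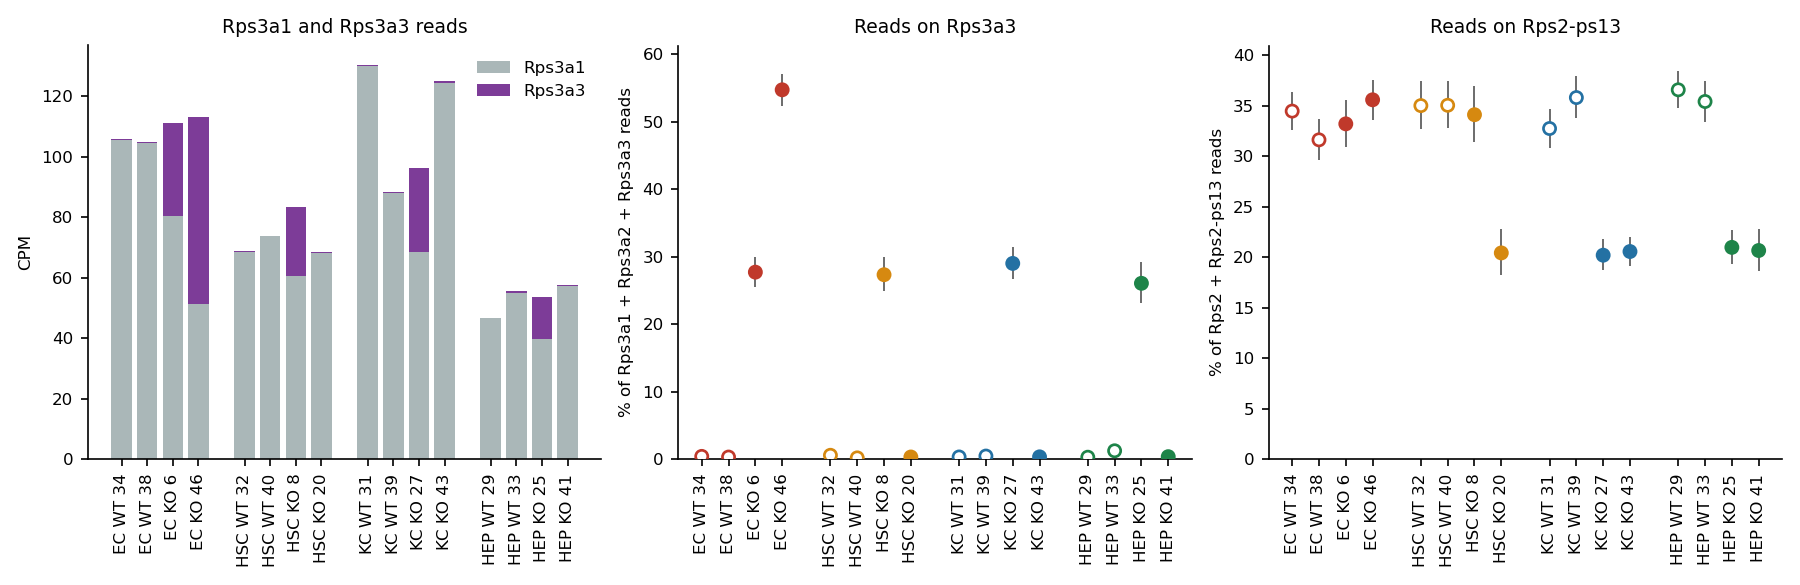
CPM of Rps3a1 and Rps3a3 (left, stacked bars), percent of the reads of the Rps3a family on Rps3a3 (middle) and percent of the reads of Rps2 and Rps2-ps13 together on Rps2-ps13 (right) in each of the 16 libraries, coloured by cell type, with open points for WT-labelled and filled points for KO-labelled libraries and 95% Wilson intervals as error bars. Rps3a3 lies between 26.1 and 54.7% in 5 KO-labelled libraries and at or under 1.22% in the 11 others, and Rps2-ps13 lies at 20.2 to 21.0% in 5 libraries and at 31.6 to 36.6% in the 11 others.

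In each cell type, Rps3a1 was lowest in the libraries that held the Rps3a3 signal. Rps3a1 was at 105 and 104 CPM in EC WT and at 80.4 and 51.2 CPM in EC KO 6 and 46, without overlap. The sum of the family, however, was at 106 and 105 CPM in EC WT and at 111 and 113 CPM in EC KO. In HEPs, Rps3a1 was at 39.7 CPM in KO 25 and at 57.3 CPM in KO 41, with 46.6 and 55.0 CPM under the WT label, and the family sum ran from 46.7 to 57.5 CPM. In HSCs Rps3a1 was at 60.5 CPM in KO 8 and at 68.3 to 73.8 CPM in the other libraries, and in KCs at 68.4 CPM in KO 27 and at 88.0 to 129.8 CPM in the others. The sum spanned a narrower range than Rps3a1 did alone in ECs, KCs and HEPs but not in HSCs, where KO 8 had the highest sum at 83.2 CPM. Rps3a2, a further intronless copy, had 1 read in all 16 libraries together. Pde4d, the phosphodiesterase gene around Rps3a3, is not a member and shares no exon with it.

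In the edgeR quasi-likelihood test of EC KO against EC WT, Rps3a3 was higher by a log2 fold change of 6.97 (SE 0.59, adjusted p = 0.0190), with means of 46.4 ± 21.9 and 0.365 ± 0.0763 CPM (SD, n = 2 each). It was the only member called, at an adjusted p under 0.05 over 14631 genes. Over all genes tested in ECs, 2.08% were called in either direction and 0.116% were called higher. Rps3a1 was lower by a log2 difference of -0.69 (SE 0.25), which did not pass (adjusted p = 0.273). With the reads of Rps3a1 and Rps3a3 added together, the log2 fold change was 0.09 (SE 0.20, adjusted p = 0.884) in ECs, 0.06 in HSCs, -0.05 in KCs and 0.18 in HEPs. The call was lost when genes enriched in hepatocytes were left out of the fit (adjusted p = 0.0591), in 1 fit over all 16 libraries (adjusted p = 0.226), and under a minimum of 10 counts in every library, which removed the gene. EC WT libraries also held more hepatocyte RNA: 857 genes enriched in hepatocytes took 6.92 and 13.1% of the reads in EC WT and 2.51 and 1.92% in EC KO, none of the 10 hepatocyte markers was at 0 in either group, and their summed level was 12046 and 24916 against 2898 and 2030 CPM. No member was among those genes, and their part in the result was not tested.

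Outside ECs, Rps3a3 passed the filter on low counts only in HEPs, where the log2 fold change was 4.11 (SE 1.75, adjusted p = 0.708). The difference in its effect between cell types did not pass in any of the 6 pairs, with log2 differences of 0.26 to 2.81 and SEs of 2.77 to 3.04. Across all 4 cell types together, the log2 share of the family was higher under the KO label by 3.87 on average (6.83 in ECs, 3.21 in HSCs, 3.05 in KCs and 2.39 in HEPs). A two-sided exact permutation of labels within cell types gave p = 0.0278 over 1296 arrangements, of which the smallest possible p is 0.00154. In 1 cell type alone, 2 against 2 libraries cannot reach a p under 0.05, and libraries that share a liver would make this p too small. Without HSC KO 8, KC KO 27 or HEP KO 25 the difference was 3.06, 3.06 and 3.09, and the exact permutation p was 0.0556, 0.0571 and 0.0556. The mean difference is thus made of libraries at 2 levels rather than of a shift in all KO-labelled libraries.

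The genes whose levels were most like that of Rps3a3 over the 16 libraries, among the 13825 genes that averaged 1 CPM or more (on log2 CPM), were Hist1h2al (Pearson r = 0.915, Spearman rho = 0.789), Tmem41b (r = 0.827, rho = 0.541) and Hist2h2bb (r = 0.817, rho = 0.647). These values are descriptions over libraries of which 5 stand apart, and they rest on those 5. Hist1h2al, a histone H2A gene at chr13:51202727-51203065, was at 1.18 to 8.12 CPM in the 5 libraries with Rps3a3 reads and at 0 to 0.0677 CPM in the 11 others. Tmem41b, a membrane protein gene on chromosome 7, was at 13.3 to 19.7 CPM in the 5 and at 8.80 to 13.7 CPM in the 11, which overlap. Hist2h2bb, a histone H2B gene on chromosome 3, reached 12.1 CPM in the EC KO libraries but was at 0 in HEPs. For Rps3a1 r was -0.373.

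Rps2-ps13 took 46.0% of all reads on copies. Its CPM was 59.6, 51.6, 36.7 and 55.7 in EC WT 34, WT 38, KO 6 and KO 46, and 34.6, 36.2, 25.9 and 16.6 in HSC WT 32, WT 40, KO 8 and KO 20. It was 50.4, 47.2, 35.0 and 42.2 in KC WT 31, WT 39, KO 27 and KO 43, and 60.2, 50.3, 30.5 and 20.2 in HEP WT 29, WT 33, KO 25 and KO 41. The KO-labelled libraries were below the WT-labelled ones in HSCs, KCs and HEPs, and overlapped with them in ECs.

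Set against its parent, Rps2-ps13 fell into 2 levels of another kind. It had 25.3 to 26.5% of the reads of Rps2 in 5 libraries, HSC KO 20, KC KO 27, KC KO 43, HEP KO 25 and HEP KO 41, and 46.2 to 57.6% in the 11 others, with none between. Rps2 itself was at 138 and 163 CPM in KC KO 27 and 43, above the 104 and 84.8 CPM of KC WT. In HEPs it was at 115 and 77.7 CPM in KO 25 and 41 against 105 and 91.7 CPM, which overlap. All 5 libraries with the lower share were KO-labelled, but none was an EC library, and KO-labelled libraries with title numbers 2 apart were again alike. Libraries 2 apart with different labels were not: KC KO 27 was at 25.3% and HEP WT 29 at 57.6%. Likewise, HEP KO 41 was at 26.0% and KC WT 39 at 55.7%. KC KO 27 and HEP KO 25 were thus in both sets, with the higher Rps3a3 share and the lower Rps2-ps13 share. In the tests per cell type Rps2-ps13 did not pass: the log2 fold change was -1.07 (SE 0.23, adjusted p = 0.700) in HEPs, -0.77 (SE 0.28, adjusted p = 0.530) in HSCs, -0.39 in KCs and -0.26 in ECs, and it was called in HEPs only without the filter on low counts (adjusted p = 0.0140).

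The remaining copies held few reads. Of 264 copies, 54 had no count in any library, 189 had a count in 1 to 15 libraries and 21 in all 16, and the median over those with a count was 0.0276 CPM. Only 8 reached a mean of 1 CPM, and the 10 with the most reads held 82.9% of all reads on copies. The exons of 7 copies overlapped those of another gene.

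After Rps2-ps13 and Rps3a3, the copies with the most reads included Rpl3-ps1 (mean 6.04 CPM over all libraries), Rps2-ps9 (5.63 CPM), Rps24-ps3 (3.94 CPM), Rpl13-ps1 (2.01 CPM), Rpl14-ps1 (1.32 CPM), Rpl36-ps3 (0.947 CPM) and Rpl10-ps3 (0.765 CPM). Their identity to the parent transcript ran from 94.2% in Rps2-ps9 to 100% in Rpl10-ps3, over the bases that aligned. Rpl13-ps1 aligned in reverse orientation, so its annotated strand is opposite to that of its parent sequence. Rpl13-ps1 and Rpl36-ps3 lie within genes of the same strand (Usp32 and Gm40271), and Rps2-ps9 and Rpl14-ps1 within genes of the opposite strand (D17Wsu92e and Trpm4). The counting was not stated to use strand.

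Copies with at least 10% of the reads of their parent in a library were Rps2-ps13 (16 libraries), Rps24-ps3 (12), Rps3a3 (5), Rpl23a-ps2 (4), Rps2-ps9 (2) and Rpl23a-ps6 (1). Rps24-ps3 held 8.12 to 32.1% of the reads of Rps24, and Rps2-ps9 held 8.55 to 18.2% of those of Rps2 in ECs but 0.671 to 2.60% in HEPs. Rpl23a-ps2 reached 43.9% of Rpl23a in ECs, a parent with a mean of 4.26 CPM. No read count of a copy was corrected for length here.

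Between cell types, Rps2-ps9 was higher in ECs (12.1 CPM) than in HSCs (3.57 CPM) and HEPs (1.18 CPM), by 1.39 (SE 0.46, adjusted p = 0.0437) and 1.90 (SE 0.48, adjusted p = 0.00486 in the edgeR fit over 16 libraries). These calls also passed, in the same direction, when libraries were scaled by their total reads on genes. Under both scalings Rps2-ps9 was also higher in KCs than in HEPs, and Rps2-ps13 and Rpl23a-ps2 were also higher in ECs than in HSCs. Within ECs, Rps2-ps9 was at 12.8 and 20.4 CPM in WT 34 and 38 and at 6.48 and 8.62 CPM in KO 6 and 46. The shares of all genes called in these pairs are given with the core genes.

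All copies together held 111 to 164 CPM in ECs, 48.9 to 81.8 CPM in HSCs, 91.9 to 104 CPM in KCs and 42.9 to 78.5 CPM in HEPs. Their log2 level was lower by -0.08 on average under the KO label (two-sided exact permutation within cell types, p = 0.614). With Rps3a3 left out, a step added after the data were seen, it was lower by -0.38 (exact permutation p = 0.00309), with -0.36 in ECs, -0.32 in HSCs, -0.19 in KCs and -0.63 in HEPs. Here too, libraries that share a liver would make this p too small. Libraries overlapped between labels in KCs, where KO 43 was at 93.7 CPM and WT 39 at 91.5 CPM, and in no other cell type. Without both Rps3a3 and Rps2-ps13 the difference was -0.03 on average (exact permutation p = 0.815), so the average difference over cell types rested on Rps2-ps13. This need not hold within each cell type. In ECs, Rps2-ps9 was at means of 16.6 CPM under the WT label and 7.55 CPM under the KO label (edgeR, adjusted p = 0.282). Rpl3-ps1 was at 8.33 and 2.54 CPM there (edgeR, adjusted p = 0.293), but at 2.92 and 6.30 CPM in HEPs (edgeR, adjusted p = 0.700).

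The core genes were measured at levels that spanned a wide range. By CPM per kilobase of exon, averaged over all libraries, Rplp0, the base of the stalk to which the acidic P proteins bind, was highest at 242, followed by Rpl4 at 229, and the median of the 77 genes was 30.8. By reads alone the 3 highest were Rpl4 (459 CPM), Rplp0 (401 CPM) and Rps3 (291 CPM), and the 3 lowest were Rpl24 (0.515 CPM), Rpl23a (4.26 CPM) and Rpl39 (14.7 CPM). Rpl24 shares 47.0% of its exon bases with Gm28037 and Rpl23a shares 62.3% with Snord42b and Tlcd1, and reads that fall on 2 genes were not counted. For a median core gene, 21.0% of its stretches of 50 bases also occurred elsewhere, and 24.8 to 30.1% of all reads were set aside as not unique in the 12 libraries other than HEP and 38.2 to 47.9% in HEPs. The reads of single core genes are therefore incomplete.

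Core genes took 0.742 ± 0.0884% of reads on genes in ECs, 0.488 ± 0.0311% in HSCs, 0.774 ± 0.137% in KCs and 0.431 ± 0.0208% in HEPs (SD, n = 4 each). The EC libraries ran from 0.682 to 0.873% and the KC libraries from 0.638 to 0.943%, which overlap, and both lay above all HSC and HEP libraries. HSC libraries ran from 0.448 to 0.519% and HEP libraries from 0.4003 to 0.447%, next to each other. In bulk samples, fewer cells of a type and less RNA per cell cannot be told apart, and a share is relative to the other RNA of the library. Under the KO label the log2 share was higher by 0.06 on average (0.15 in ECs, 0.07 in HSCs, -0.04 in KCs and 0.08 in HEPs), which did not pass (two-sided exact permutation, p = 0.438).

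**Figure D2:**
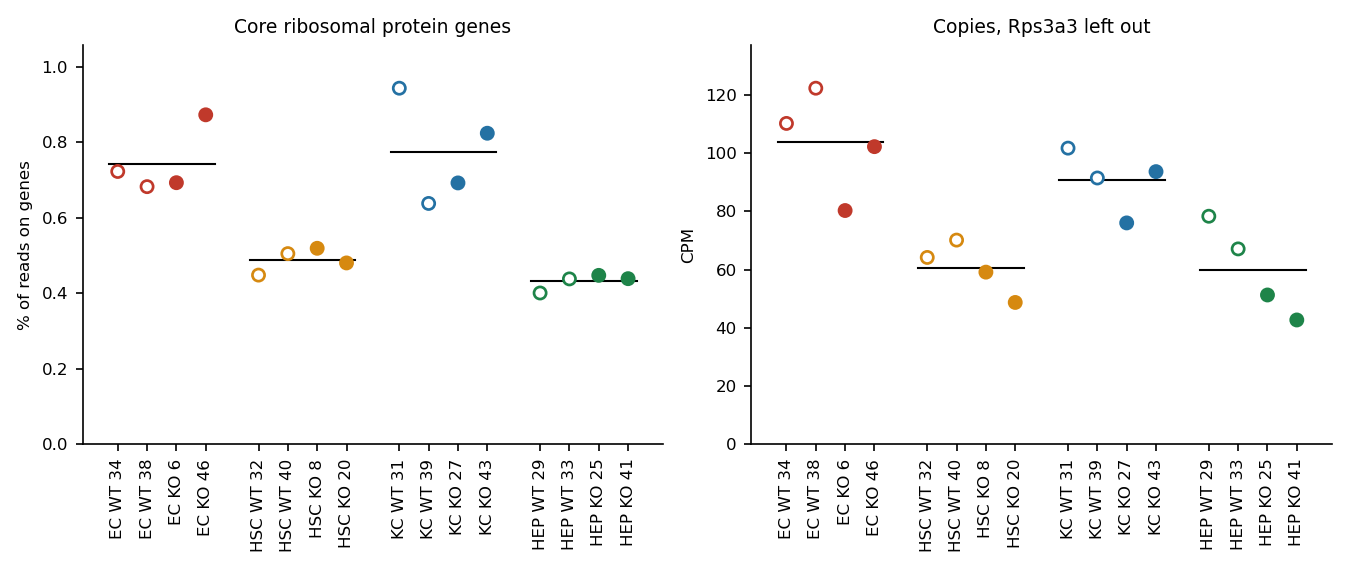
Percent of reads on genes that fell on the 77 core ribosomal protein genes (left) and CPM of the copies with Rps3a3 left out (right) in each library, by cell type. Open points are WT-labelled, filled points KO-labelled libraries and black bars are means over the 4 libraries of a cell type. The means on the left are 0.742% in ECs, 0.488% in HSCs, 0.774% in KCs and 0.431% in HEPs.

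By KO label, no core gene passed in any cell type. In ECs all 77 core genes were tested with edgeR, 0 were called and 3 had an unadjusted p under 0.05, where 15% of all genes had one. These were Rpl5, which carries 5S ribosomal RNA, at 62.8 and 61.5 CPM in EC WT and 94.3 and 103 CPM in EC KO (log2 fold change 0.67, SE 0.21, adjusted p = 0.216), Rpl3, which lies near the peptidyl transferase centre, at 169 and 173 CPM against 241 and 281 CPM (0.62, SE 0.22, adjusted p = 0.275), and Rps3a1. In HSCs, KCs and HEPs 76 core genes were tested, 0 were called, and 0, 0 and 1 had an unadjusted p under 0.05, against 8.76%, 5.09% and 7.11% of all genes. That 1 was Rpl3 in HEPs, at 83.8 and 87.2 CPM under the WT label and 113 and 115 CPM under the KO label (log2 fold change 0.48, SE 0.19, adjusted p = 0.700). DESeq2 called no core gene in any of the 4 comparisons either. No gene of the whole table was called by edgeR in HSCs, KCs or HEPs, which is 0% of the genes tested.

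The median log2 fold change of the core genes was 0.13 in ECs, 0.04 in HSCs, -0.18 in KCs and 0.15 in HEPs, beside -0.01, 0.02, -0.02 and -0.02 over all genes tested. In ECs 57 of 77 core genes were above 0 and in HEPs 69 of 76, while in KCs 66 of 76 were below 0. The medians near 0 over all genes place about as many of all genes above 0 as below. Core genes can vary together between libraries, so these counts are not independent evidence on the label. The core share in KC KO, 0.692 and 0.824%, lay between the 0.943 and 0.638% of KC WT. EC KO (0.693 and 0.873%) overlapped with EC WT (0.722 and 0.682%). HEP KO (0.447 and 0.4383%) lay just above HEP WT (0.4003 and 0.4377%). The tests of the difference between cell types called none of the 108 members tested in any of the 6 pairs, in which 0 to 4 members had an unadjusted p under 0.05 and 0.0349% (ECs against HSCs), 2.06% (ECs against KCs), 0.0697% (ECs against HEPs), 0.593% (HSCs against KCs), 0.0755% (HSCs against HEPs) and 0.0116% (KCs against HEPs) of all genes were called. Of the paralogs, Rps4l was at 26.5 and 26.7 CPM in HSC WT and at 52.3 and 59.0 CPM in HSC KO. This difference did not pass with edgeR (log2 fold change 1.05, SE 0.23, adjusted p = 0.343), but did with DESeq2 (adjusted p = 0.0403) and with edgeR without the filter on low counts (adjusted p = 0.0413). The direction was not shared by all cell types. With edgeR, Rps4l was lower under the KO label in KCs (-1.69, SE 0.68, adjusted p = 0.933) and HEPs (-0.71, SE 0.38, adjusted p = 0.723). In ECs it was higher (0.58, SE 0.55, adjusted p = 0.687), and none of these passed.

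Cell types were compared over both labels, in 1 fit of 16 libraries. How the core genes compared between HEPs and the other cell types depended on the scaling of the libraries. Trimmed mean of M-values (TMM) scaling, the main choice, set factors of 0.497 to 0.588 in HEPs and 1.01 to 1.47 elsewhere. The choice moved the log2 fold changes of all genes together: their median for ECs against HEPs was 0.54 under TMM and 1.85 when libraries were scaled by total reads on genes. Values are therefore given under both scalings and also relative to the median of all genes.

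Between ECs and HSCs, 9 of 77 core genes were higher in ECs and 0 lower, with a median log2 fold change of 0.33. Of all genes, 13.3% were called higher and 12.8% lower, so neither share of the core genes lay above that of all genes. With the contrast limited to WT-labelled libraries, 0 core genes were called. Under total reads 41 were higher and 0 lower (median 0.57), beside 18.6% of all genes higher and 10.2% lower. Relative to all genes the medians were 0.31 and 0.31. The 9 genes called under both scalings included Rplp0, Rpl23, Rpl27a, Rps6, Rps13, Rps14, Rps20 and Rps24. Rps24, a small subunit protein, was at 34.4 ± 5.83 CPM in ECs and 15.9 ± 1.77 CPM in HSCs (SD, n = 4; log2 fold change 0.87, SE 0.27, adjusted p = 0.0342). Rps20 followed with 0.77 (SE 0.21) and Rplp0 with 0.73 (SE 0.21). Leaving out 1 library of either type gave 0 to 7 calls, and those fits also tested more genes.

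Core genes were lower in HSCs than in KCs under either scaling: 54 core genes were lower and 0 higher (median -0.77), where 20.6% of all genes were called lower and 22.3% higher, and 53 were lower and 0 higher under total reads (median -0.68, beside 19.3% of all genes lower). Relative to all genes the medians were -0.86 and -0.84, and 53 genes were called under both. Rps29 was at 36.9 ± 7.61 CPM in HSCs and 96.1 ± 25.4 CPM in KCs (log2 fold change -1.46, SE 0.26, adjusted p = 9.0e-04). Rps28 differed by -1.40 (SE 0.28) and Rps9, a protein that acts in decoding accuracy, by -1.28 (SE 0.20). Leaving out 1 library gave 31 to 61 calls.

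ECs were lower than KCs in 18 core genes and higher in 0 (median -0.38), where 14.5% of all genes were called lower and 17.5% higher. Under total reads 4 were lower and 3 higher (median -0.04), beside 10.8% of all genes lower and 25.3% higher, so the split depended on the scaling. Relative to all genes the medians were -0.51 and -0.49. The 4 lower under both were Rpl10a, Rpl21, Rps9 and Rps29. Rpl10a was at 31.2 ± 5.48 CPM in ECs and 51.2 ± 7.24 CPM in KCs (log2 fold change -1.04, SE 0.22, adjusted p = 0.00375), and Rpl21 at 65.7 ± 7.78 and 104 ± 14.4 CPM (-0.98, SE 0.20). Leaving out 1 library gave 5 to 40 calls.

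Against HEPs the direction of the median turned with the scaling. Under TMM 46 core genes were lower in ECs than in HEPs and 0 higher (median -0.64), where 25.5% of all genes were called lower and 33.2% higher. Under total reads 59 were higher and 1 lower (median 0.72), beside 58.9% of all genes higher and 12.4% lower. For HSCs against HEPs the counts were 67 lower and 0 higher under TMM (median -0.95, with 24.4% of all genes lower and 34% higher) and 3 lower and 15 higher under total reads (median 0.18, with 13.5% lower and 56.3% higher). For KCs against HEPs they were 12 lower and 2 higher under TMM (median -0.24, with 26.3% of all genes lower and 29.3% higher) and 0 lower and 65 higher under total reads (median 0.80, with 14.7% lower and 48.4% higher). Relative to all genes, the core medians were below 0 in all 3 pairs under both scalings, at -1.18 and -1.13 for ECs, -1.56 and -1.49 for HSCs and -0.49 and -0.43 for KCs. Few genes were called in the same direction under both scalings: Rpl35a was higher in HEPs than in ECs and HSCs, Rps2 and Rps18 were higher in HEPs than in HSCs, and Rps12 and Rps29 were lower in HEPs than in KCs. Leaving out 1 library gave 17 to 29 calls for ECs, 35 to 47 for HSCs and 3 to 14 for KCs against HEPs under TMM, and for KCs a median of -0.30 to 0.16, in fits that also tested more genes.

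Rpl35a, a large subunit protein mutated in some patients with Diamond-Blackfan anaemia, had the lowest log2 fold change of the core genes in all 3 pairs. It was at 40.7 to 49.5 CPM in HEPs and at 27.6 to 33.2 CPM in ECs, without overlap (TMM -1.90, SE 0.20, adjusted p = 6.7e-06; total reads -0.52, adjusted p = 0.0180). In HSCs it was at 19.8 to 24.5 CPM (TMM -2.18, total reads -1.05), and in KCs at 28.8 to 50.3 CPM, which overlap with HEPs (TMM -1.37, total reads -0.32, adjusted p = 0.118). Rps12, at 6.55 to 9.03 CPM in HEPs, was at 17.7 to 34.5 CPM in KCs (TMM 0.72, SE 0.26, adjusted p = 0.0315; total reads 1.75).

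**Figure D3:**
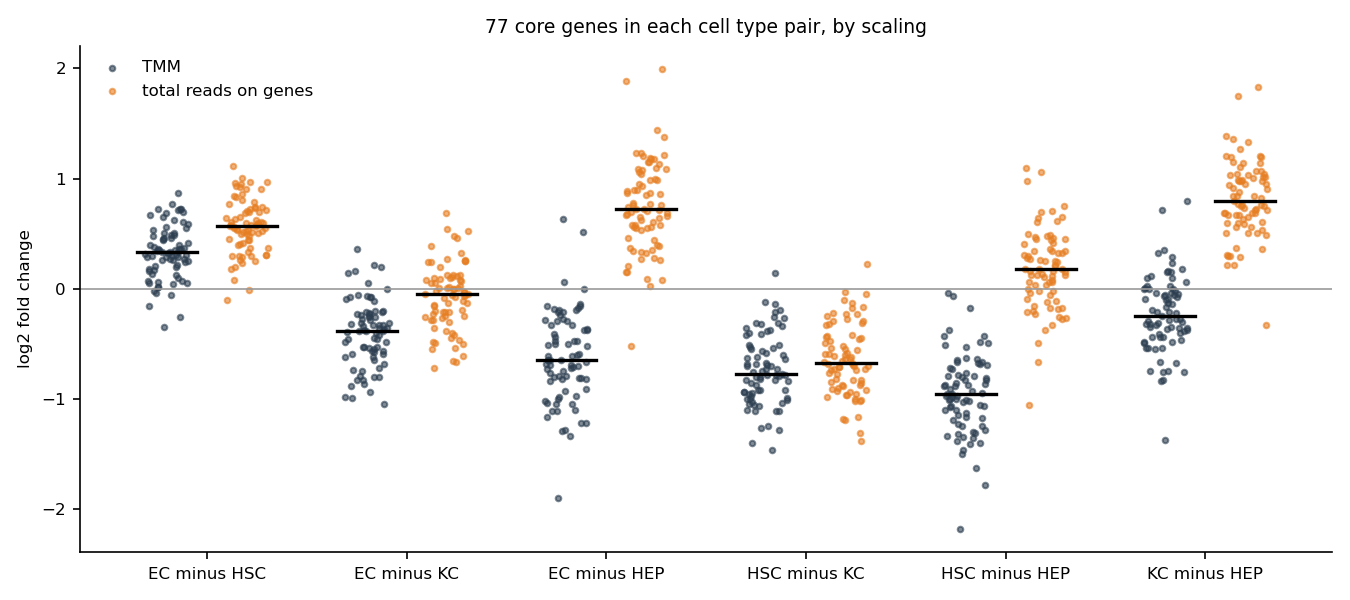
Log2 fold change of each core gene between cell types in the 6 pairs, under TMM scaling and under scaling by total reads on genes, with black bars for the medians. In the 3 pairs with HEPs the core medians of -0.64, -0.95 and -0.24 under TMM stand at 0.72, 0.18 and 0.80 under total reads.

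The make-up of the core pool does not depend on the scaling, since each gene is taken as a share of all core reads of its library. The shares of the 77 genes were alike in all libraries, with a correlation across genes of 0.974 to 0.991 in the 24 pairs of libraries of 1 cell type and 0.930 to 0.982 in the 96 pairs between cell types, where genes are not independent replicates. A gene was counted as set apart when all 4 libraries of a cell type lay beyond all 12 others, without a test. The same was counted for all 17214 genes as reads over core reads. This background is not a like measure, because core reads were a different share of reads in each cell type. It can be uneven, as in HSCs with 14.7% of all genes above and 0.273% below, while core shares add up to the whole.

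HEPs had 8 core genes above all others, among them Rpl35a, Rps18, Rpl36, Rps25, Rpl11, Rpl18 and Rpl19, where 12.1% of all genes were above, and 8 below, among them Rps12, Rps27, Rps23, Rpl13, Rps15a, Rps19 and Rps3, where 15.6% of all genes were below. Rpl35a made up 0.910 to 1.13% of core reads in HEPs and 0.316 to 0.533% elsewhere, 2.34 times the mean of the other cell types. Rps12 made up 0.150 to 0.202% in HEPs and 0.277 to 0.493% elsewhere, and Rps27 0.815 to 0.897% in HEPs and 0.995 to 2.01% elsewhere. The share of the core genes set apart in HEPs was near this background in both directions, with the limit given above.

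KCs had 3 core genes above, Rps29, Rps9 and Rpl32, beside 5.14% of all genes, and 2 below, Rpl29 and Rps6, beside 3.56%. Rps29 made up 1.08 to 1.36% of core reads in KCs and 0.581 to 0.939% elsewhere, and Rps9 3.84 to 4.31% in KCs and 2.65 to 3.11% elsewhere. ECs had 1 above, Rps6, a target of S6 kinase, at 1.59 to 1.83% against 1.03 to 1.43% elsewhere, beside 5.68% of all genes, and 4 below, Rpl10a, Rpl21, Rps25 and Rpl39, beside 0.854%. HSCs had 1 above, Rps7, at 1.87 to 2.02% against 1.14 to 1.46% elsewhere, beside 14.7% of all genes, and 3 below, among them Rpl23 and Rplp0, beside 0.273%. Rplp0 made up 5.08 to 5.93% of core reads in HSCs and 6.03 to 7.58% elsewhere.

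**Figure D4:**
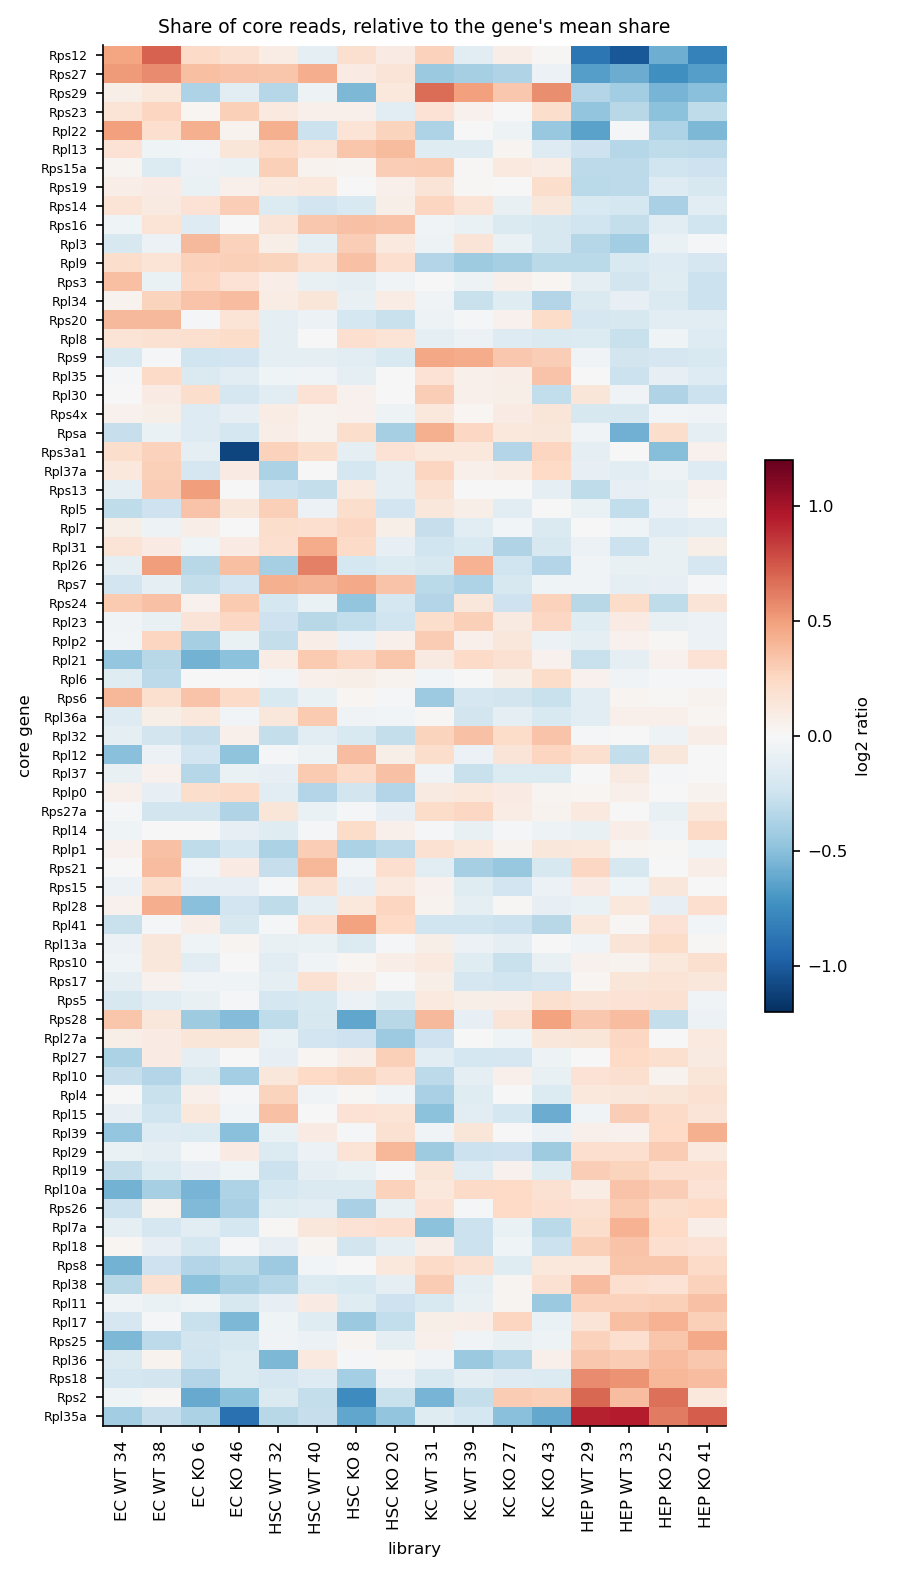
Heat map of the share of core reads held by each core gene shown in each library, as log2 ratio to the mean over libraries, with libraries grouped by cell type. Genes left out include Rpl24 and Rpl23a, and Rpl35a in HEPs and Rps29 and Rps9 in KCs stand out as rows that are high in all 4 libraries of 1 cell type.

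Paralogs are genes of their own that encode a second version of a core protein. Rps27l, whose protein differs little from that of Rps27 and is known as a p53 target, was at 138 to 154 CPM in HEPs (mean 144 ± 7.75, SD, n = 4). It was at 47.2 to 68.0 CPM in ECs, 36.8 to 52.3 CPM in HSCs and 47.4 to 69.4 CPM in KCs, so that the HEP libraries lay above all 12 others. In CPM the parent Rps27 ran the other way, with means of 137 CPM in ECs, 79.1 CPM in HSCs, 84.8 CPM in KCs and 36.9 CPM in HEPs. The ratio of Rps27l to Rps27 reads, not corrected for length and read only across cell types, was 3.51 to 4.11 in HEPs and 0.34 to 0.84 in the other libraries.

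Rps27l was higher in HEPs under both scalings, which few core genes were. The log2 fold change of ECs against HEPs was -2.72 (SE 0.20, adjusted p = 3.0e-07) under TMM and -1.34 (adjusted p = 3.3e-05) under total reads. HSCs differed from HEPs by -2.83 and -1.69, and KCs by -2.41 and -1.37. For Rps27, ECs against HEPs gave 0.52 (SE 0.21, adjusted p = 0.0513) under TMM, which did not pass, and 1.89 under total reads. HSCs against HEPs gave -0.03 (SE 0.21, adjusted p = 0.935) under TMM. The opposite direction of Rps27 thus depended on the scaling.

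Rpl36al was at 53.2 to 63.3 CPM in HEPs, 34.7 to 61.1 CPM in KCs, 26.5 to 33.7 CPM in HSCs and 20.5 to 27.7 CPM in ECs, with HEPs above ECs and HSCs under both scalings (total reads -1.16 and -0.96) and KCs above both (TMM -1.15 for ECs and -0.71 for HSCs). Rps4l varied between libraries of 1 type, from 8.55 to 31.1 CPM in ECs, 26.5 to 59.0 CPM in HSCs, 3.52 to 24.0 CPM in KCs and 8.57 to 22.8 CPM in HEPs, and was higher in HSCs than in KCs (log2 fold change 1.90, SE 0.45, adjusted p = 0.00536). Rpl22l1, whose parent Rpl22 mice can live without, was at means of 20.1, 21.3, 15.2 and 7.89 CPM in ECs, HSCs, KCs and HEPs, and Rpl7l1 at 55.3, 57.6, 41.0 and 50.5 CPM. Rpl3l, the striated muscle version of Rpl3, reached at most 1.81 CPM in a library. Rpl10l, a testis paralog, had no read.

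**Figure D5:**
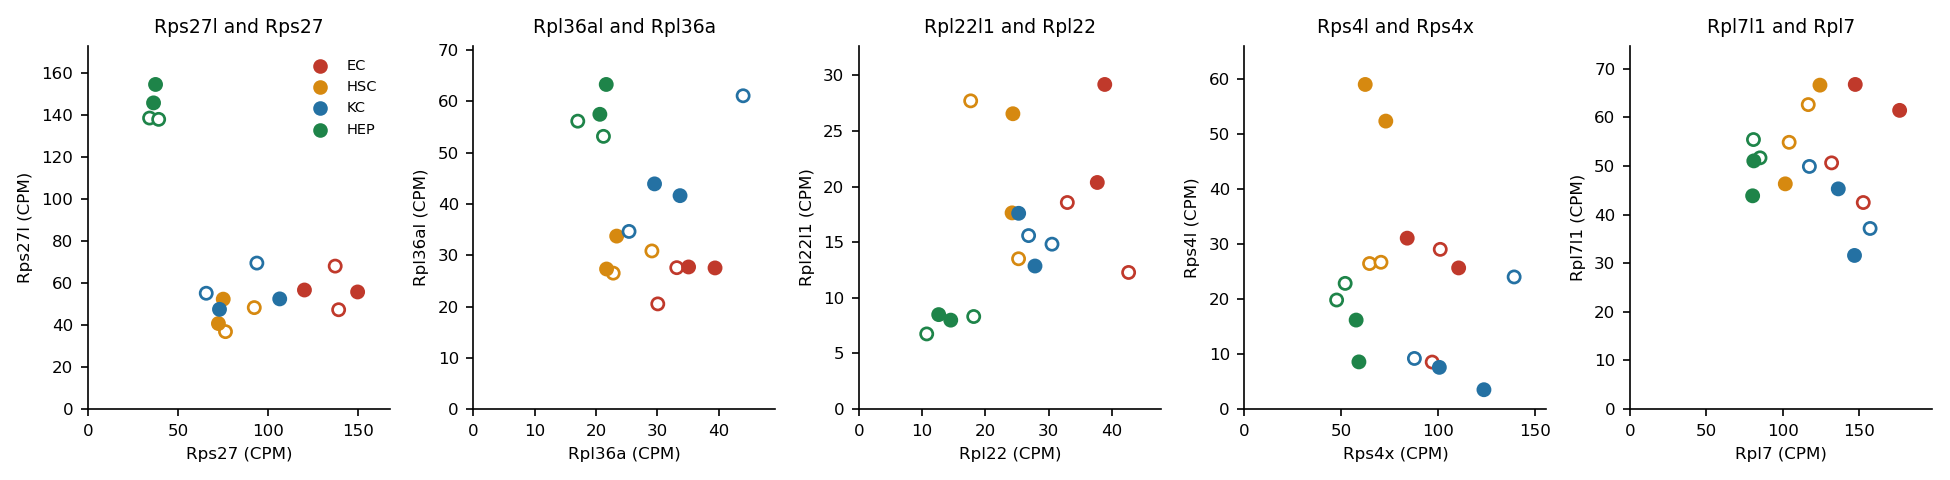
CPM of paralogs and of their parent genes in each library, coloured by cell type, with the paralog on the vertical and the parent on the horizontal axis and open points for WT-labelled libraries. Rps27l lies between 138 and 154 CPM in HEPs and at or under 69.4 CPM in the other 12 libraries, while Rps27 is lowest in HEPs.

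The start sites that RefSeq lists for 2 pairs of parent and paralog are shown because the TOP tract is a feature that the choice of members did not use. Each stretch has 15 bases before and 15 bases after a start site of GRCm38.p6, 5′ to 3′ on the strand of the gene, and capitals mark a C followed by at least 5 of C or T that begins within 10 bases of the start.
Rps27, chr3:90213634-90213663, minus strand: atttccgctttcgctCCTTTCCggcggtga
Rps27l, chr9:66946071-66946100, plus strand: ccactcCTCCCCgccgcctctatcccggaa
Rps27l, further start site, chr9:66946398-66946427, plus strand: accatgggcttcagggtcactaacgggcct
Rpl22, chr4:152324421-152324450, plus strand: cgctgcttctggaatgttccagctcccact
Rpl22, further start site, chr4:152325711-152325740, plus strand: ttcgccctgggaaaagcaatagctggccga
Rpl22l1, chr3:28805493-28805522, plus strand: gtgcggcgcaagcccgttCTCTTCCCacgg
The run marked in Rps27l lies wholly before the start site, where more pyrimidines precede it, and the further start site of that gene has none. A gene was counted when any of its start sites had such a run. This was so for 31 of the 57 core genes with a promoter in the table (54.4%), 4 of 8 paralogs and 21.9% of all 27025 genes. When at least 1 base of the run had to be transcribed, it was so for 28 core genes (49.1%), 2 paralogs and 16.3% of all genes. By this stricter count 5 of 15 translation factors, 1 of 25 ribosome biogenesis genes and 6 of 69 mitochondrial ribosomal proteins had one. A match of these letters is a description and not a proof of a TOP mRNA, and the start sites are those of the annotation.

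Other genes of protein synthesis were followed as lists. No gene of the translation factors (20 genes), ribosome biogenesis factors (30), regulators such as Myc and Tsc2 (16) or mitochondrial ribosomal proteins (77, of which 76 were tested) was called by KO label in any cell type. Of all genes tested, 2.08% were called in ECs and 0% in HSCs, KCs and HEPs, so only the EC comparison could set the lists apart. Unadjusted p values under 0.05 were found in 0 to 2 translation factors and 1 to 4 biogenesis factors per cell type. Of all genes, 15% had one in ECs, 8.76% in HSCs, 5.09% in KCs and 7.11% in HEPs. Eef1a1, which brings aminoacyl-tRNA to the ribosome, was at 1112 ± 184 CPM in ECs, 794 ± 81.0 CPM in HSCs, 1161 ± 140 CPM in KCs and 843 ± 42.7 CPM in HEPs.

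For HSCs against KCs, 11 of 20 translation factors and 10 of 30 biogenesis factors were lower and 0 higher under TMM, with medians of -0.55 and -0.51, where 20.6% of all genes were called lower and 22.3% higher. Under total reads 11 translation factors were lower and 0 higher (median -0.47), and 11 biogenesis factors were lower and 1 higher (median -0.44), beside 19.3% of all genes lower and 23.5% higher. Eif4a1, the helicase of the cap-binding complex, was at 202 to 319 CPM in HSCs and at 497 to 765 CPM in KCs, without overlap. Mitochondrial ribosomal proteins, which serve a separate ribosome, were lower in ECs than in HEPs in 73 of 76 genes under TMM (median -1.63), where 25.5% of all genes were called lower and 33.2% higher. Under total reads 22 were lower and 9 higher (median -0.26), beside 12.4% of all genes lower and 58.9% higher. The mitochondrial medians relative to all genes were -2.17 and -2.11, against -1.18 and -1.13 for the cytosolic core genes. In CPM the genes with the most reads went different ways. Mrpl28 was at 104 to 118 CPM in HEPs and 51.2 to 76.4 CPM in ECs, and Mrps7 at 89.3 to 110 and 58.1 to 76.1 CPM. Mrpl4 was lower in HEPs (51.8 to 60.9 CPM) than in ECs (79.0 to 112 CPM), and Mrpl17 overlapped. Under TMM all of these were lower in ECs, with log2 fold changes of -2.24, -2.02, -0.65 and -0.94 in the order named. Of the 30 biogenesis factors, 10 were lower and 1 higher in ECs than in HEPs under TMM, and 2 lower and 20 higher under total reads. The 1 higher under TMM was Nop56, a core protein of the nucleolar particles that methylate ribosomal RNA, at 12.1 to 30.1 CPM in HEPs and at 90.9 to 148 CPM in ECs.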

How the data were processed

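Bulk RNA-seq libraries of 4 liver cell types were analysed from the raw counts per gene that the authors deposited, 16 tables with 5 summary lines of HTSeq that were left out. The submitters' processing notes name Trimmomatic 0.32, HISAT2 2.1.0, HTSeq 0.9.1, edgeR and GRCm38, without their settings. The labels name both Smart-seq2 and a stranded TruSeq kit, and the strand setting of the counting is not given in the sources used here. Reads aligned to several places were not counted.

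Counts were tested with edgeR 4.0.16 (quasi-likelihood test, TMM, filterByExpr, Benjamini-Hochberg over all genes, threshold 0.05) within each cell type by label, and in 1 fit of 8 group means for cell types and interactions, and DESeq2 1.42.0 was an alternative. Scripts were tested on simulated data. CPM is counts scaled to 1000000 reads on genes, with a limit of 3 counts where a gene is at 0. Shares were tested by exact permutation within cell types. Wilson intervals are at 95%. Annotation was GENCODE vM21 (350 of 351 members matched), and promoters were from RefSeq.

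Members, lists and tests were chosen with earlier results of these data known. Named were Rps3a3 and its relatives, called members, the 3 core genes at each end of a comparison, paralogs, the 10 copies with most reads or with at least 10% of the reads of the parent, the 3 genes most like Rps3a3, and up to 4 genes of a list. Genes given for an unadjusted p, for being set apart or for both scalings were chosen after their values were seen. Results for 2 core genes and 1 copy are not reported here.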

Additional observations from a re-analysis of the deposited data

How the results depend on the processing

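No paired analysis was possible because no replicate number is shared between the groups compared. Counts are of core genes called between cell types and of members called by label or interaction, and no cause of a change below was tested unless it is named. By label in ECs, 0 members were called with at least 10 counts in every library, without hepatocyte-enriched genes and in 1 fit of all 16 libraries. Without a filter on low counts 2 were called in HSCs (Rps3a3 and Rps4l), 1 in KCs (Rps3a3) and 2 in HEPs (Rps3a3 and Rps2-ps13). DESeq2 called 1 in HSCs (Rps4l) and 1 for the interaction of ECs and HEPs, Rpl3-ps1. Leaving out 1 library gave 0 to 1 in KCs, with 1, Rps3a3, without KC KO 43, and kept 1 in ECs and 0 in HSCs and HEPs.

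Scaling by total reads gave 41 calls for ECs against HSCs, 7 for ECs against KCs, 18 for HSCs against HEPs and 65 for KCs against HEPs, and medians of 0.72, 0.18 and 0.80 for ECs, HSCs and KCs against HEPs. It also gave log2 values of 0.085 for Rpl10 (ECs against HSCs), 0.028 for Rps2 and 0.085 for Rpl10a (ECs against HEPs), 1.10, 1.06 and 0.98 for Rps27, Rps12 and Rpl24 (HSCs against HEPs), 0.21 and 0.22 for Rpl23a and Rps18 (KCs against HEPs) and -0.067 for Rps3a1 by label in HEPs. Size factors of the relative log expression kind gave 9 for KCs against HEPs, and DESeq2 gave 32 for ECs against KCs and 1.4e-05 for Rps27 (HSCs against HEPs). Without a filter, calls were 2 for ECs against HSCs, 19 for ECs against HEPs, 40 for HSCs against HEPs and 3 for KCs against HEPs (median 0.013), with 0.24, 0.21 and 0.094 for Rps27, Rps12 and Rpl24 (HSCs against HEPs). With at least 10 counts, Rps27 and Rps12 were at 0.19 and 0.16 there and Rps3a1 by label in HEPs at -0.0055. WT libraries alone gave 0 for ECs against HSCs, 8 for ECs against KCs, 20 for ECs against HEPs, 27 for HSCs against KCs, 40 for HSCs against HEPs and 4 for KCs against HEPs, with 0.13, 0.055 and 0.24 for Rps27, Rps12 and Rpl24 (HSCs against HEPs).

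Leaving out 1 library let more genes through the filter (18528 to 18763 rather than 17214). For ECs against HSCs it gave 0 to 7 calls: 0 without EC WT 34, EC KO 46, HSC WT 32, HSC KO 8 or HSC KO 20, 1 without HSC WT 40 and 4 without EC WT 38. For ECs against KCs it gave 5 to 40: 11 without EC WT 38, 5 without EC KO 6 or KC KO 43, 7 without KC WT 31 and 40 without KC WT 39. For ECs against HEPs it gave 17 to 29 over the 8 libraries left out in turn, rather than 46. For HSCs against KCs it gave 31 to 61: 31 without KC WT 31 and 35 without KC KO 43. For HSCs against HEPs it gave 35 to 47, with 44 or fewer without HSC WT 32, HSC KO 8, HSC KO 20, HEP WT 33, HEP KO 25 or HEP KO 41. For KCs against HEPs it gave 3 to 14: 3 without HEP WT 33 or HEP KO 25, 5 without HEP KO 41, 6 without KC KO 27 or HEP WT 29 and 7 without KC KO 43, with a median of -0.30 to 0.16. Single genes ranged from -0.81 to 0.20 and -0.35 to 0.30 (Rps3a1 by label in KCs and HEPs), -0.0062 to 0.42 (Rpl9, ECs against KCs), -0.032 to 0.37, -0.29 to 0.12 and -0.31 to 0.11 (Rpl24, Rps7 and Rpl9, HSCs against KCs), and 0.15 to 0.30, 0.16 to 0.22 and -0.43 to 2.90 (Rps27, Rps12 and Rpl24, HSCs against HEPs).

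The log2 share difference by label ranged from -0.0057 to 0.14 for core genes (-0.0057 without KC WT 39), from -0.17 to 0.015 for copies (0.015 without HSC KO 20) and from 3.06 to 4.68 for Rps3a3. Two-sided exact permutation gave p = 0.00309 for copies without Rps3a3 (-0.38) and 0.00463 over core reads (-0.44), both chosen after the data were seen. Libraries that share a liver would make both p-values too small. The sum of Rps3a1 and Rps3a3, also chosen after the data were seen, gave 0.091 in ECs and 0.064 in HSCs, against Rps3a1 alone at -0.69 and -0.16. Depth limits copies most: at 12872706 to 15690506 reads on genes, 3 counts are 0.191 to 0.233 CPM, above the median copy.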
